A study of Homo sapiens with 9 samples.

Results

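The enzymes that place methyl groups on histone lysines, those that remove them, and core and accessory subunits of the Polycomb repressive complex PRC2 and of COMPASS were followed as 1 gene set across 3 states of WA09 (H9), an established human embryonic stem cell line. The set was a named list of 49 genes. A gene was measured where the platform annotation assigned a probe set to it and to no other gene, and its brightest such probe set, by the mean of the 9 arrays, stood for it. This left 48 of 49 genes among 19775 genes in all, namely 23 writers, 17 erasers and 8 subunits. ASH1L, a writer of H3K36 methylation, had no probe set of its own in the annotation and was not analysed here. The damage arrays, 3 in number, hold cells given DOX for 5 h, taken here as doxorubicin, which traps topoisomerase II on DNA and leaves double-strand breaks, at a dose not given in the sources used here. The differentiating arrays, also 3, hold cells kept for 2 days with 1 µM retinoic acid (RA), and since no FGF was added to their medium, both the ligand and the growth factor differ from the pluripotent arrays. The pluripotent arrays, again 3, hold untreated cells in medium with FGF2. All 9 arrays are 1-colour Affymetrix arrays of total RNA from this single line, and none carries a genetic change by its labels. Values are normalised log2 intensities, so a difference of 1 is a factor of 2.

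Histone methylation is written by SET domain enzymes and by DOT1L, and is removed by the amine oxidases KDM1A and KDM1B or by Jumonji domain demethylases. Methylation of H3K4 marks promoters and enhancers in use, and that of H3K36 and H3K79 lies over transcribed genes, whereas H3K9 and H3K27 methylation go with silencing. In pluripotent cells PRC2, with EZH2 or EZH1 as its catalytic subunit and EED and SUZ12 as its core partners, covers the promoters of developmental genes with H3K27 methylation. KDM6A and KDM6B remove that mark when such genes are switched on.

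Array medians ran from 4.62 to 4.68 over all probe sets, and within a condition the arrays correlated across genes at 0.996 to 0.998. The third pluripotent array stood apart, with an array weight of 0.512 against 1.52 and 1.59 for the other pluripotent arrays and 0.677 to 1.17 for the treated arrays. The labels do not say whether arrays of 1 condition stem from different cultures, so the p-values reflect the spread among these arrays alone, and that may be technical. Pluripotency markers, summarised as the mean log2 value of 10 of 12 listed genes, lay at 11.96 to 12.06 on the DOX arrays, 12.15 to 12.27 on the RA arrays and 12.11 to 12.2 on the pluripotent arrays. POU5F1 had no probe set of its own. NANOG averaged 11.15, 10.97 and 11.31 on the DOX, RA and pluripotent arrays, and SOX2 averaged 11.86, 12.23 and 12.32. The labelled cell type thus carried these defining markers far above the median probe set under all 3 conditions. The labels describe cultures on mouse feeder fibroblasts as well as feeder-free ones and do not say which gave each array. The mean over 17 fibroblast and stromal markers was 7.06 to 7.09 after DOX, 6.43 to 6.46 after RA and 6.58 to 6.68 in pluripotent cells. Among the defining ones, DCN averaged 4.81, 4.67 and 4.65, COL3A1 5.38, 5.70 and 5.13, and COL1A1 11.45, 11.37 and 10.37 in the same order. In bulk RNA, fewer cells of a type and less RNA per cell cannot be told apart. All fold changes below come from 1 limma fit to all 9 arrays and 19775 genes. They are log2 differences with the fit's standard error, and a gene is called where its Benjamini-Hochberg adjusted p over all genes is under 0.05.

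After DOX 31 of the 48 genes were not called, 15 fell and 2 rose. The called share of 35.4% stands beside 15.3% of all genes, the 31.2% that fell stand beside 9.6% of all genes, and the 2 that rose beside 5.67% of all genes. Because 46 of the 48 genes lay above the median level of all genes, the 9887 genes above that level are the closer background, and 24.6% of these were called, 16.6% lower and 8.05% higher. The median log2 change of the set was -0.166, against -0.005 over all genes and -0.069 over genes above the median level. Without the third DOX array 9 genes fell and 2 rose, and without the third pluripotent array 14 fell and 2 rose. With a gene's probe sets averaged in place of the brightest, 9 fell and 1 rose.

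**Figure D1:**
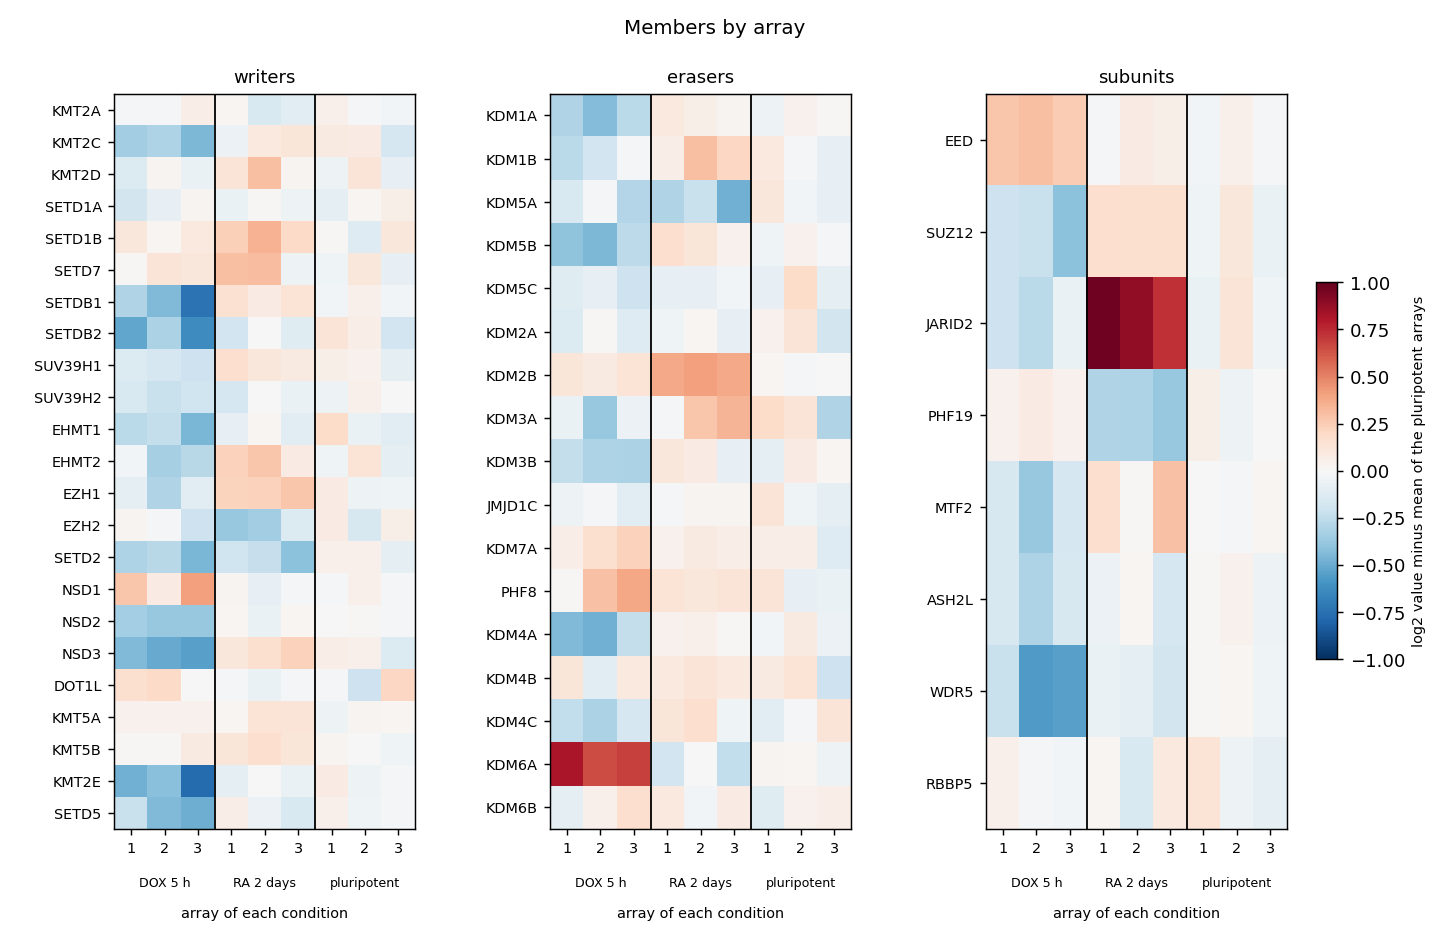
Log2 value of each of the 48 genes on each array minus the mean of the pluripotent arrays, with writers, erasers and subunits in separate panels and the arrays grouped as DOX 5 h, RA 2 days and pluripotent from left to right. Red is above and blue below the pluripotent mean. KDM6A and EED are the called genes that stand above it on the DOX arrays, 15 called genes stand below it there, and JARID2 has the deepest red on the RA arrays.

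The gene that moved farthest after DOX was KDM6A (UTX), an X-linked demethylase of H3K27. Its log2 values were 8.43, 8.26 and 8.29 on the DOX arrays, 7.42, 7.61 and 7.36 on the RA arrays and 7.64, 7.63 and 7.56 on the pluripotent arrays. Every DOX array lay above every other array. KDM6A rose 1.65-fold after DOX (log2 change 0.72 ± 0.08 SE, adjusted p = 0.00018). A second probe set of the gene also rose, by 0.89 ± 0.14, and its other 2 probe sets, both below the median probe set at means of 3.60 and 3.58, were at 0.26 and 0.31 without passing the test. When probe sets with the suffixes x_at and s_at, which can match more than 1 transcript, were left out, only 1 of those dim ones remained and the call was lost (0.31, adjusted p = 0.2). KDM6B (JMJD3) also removes H3K27 methylation. Its values were 6.47, 6.61 and 6.73 after DOX, 6.66, 6.53 and 6.64 after RA and 6.44, 6.60 and 6.63 in pluripotent cells. The 3 conditions overlapped fully, and its log2 change after DOX was 0.04 ± 0.09 (adjusted p = 0.8).

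EED, the PRC2 subunit that binds methylated H3K27, was the other gene that rose after DOX. It had values of 9.80, 9.82 and 9.77 after DOX, 9.51, 9.60 and 9.58 after RA and 9.49, 9.57 and 9.51 in pluripotent cells. The DOX arrays again lay above all others, but the step was small, 1.21-fold (0.28 ± 0.06, adjusted p = 0.012). The call was lost without the first pluripotent array (0.26, adjusted p = 0.056), with the mean of both probe sets (0.19, adjusted p = 0.16), and with s_at probe sets left out, where only a probe set at a mean of 3.30 remained (0.10, adjusted p = 0.74). SUZ12, its core partner, had values of 9.50, 9.49 and 9.30 after DOX, 9.88, 9.87 and 9.87 after RA and 9.67, 9.82 and 9.64 in pluripotent cells. It fell by 0.28 ± 0.08 after DOX (adjusted p = 0.036), so these partners of 1 complex moved in opposite directions. The call of SUZ12 stayed in 7 of 14 alternative settings. It was lost without the first or second pluripotent array (-0.30 and -0.22, adjusted p = 0.076 and 0.15) and without the second or the third DOX array (-0.31 and -0.21, adjusted p = 0.052 and 0.12). EZH2, the main catalytic subunit in dividing cells, had values of 8.76, 8.72 and 8.52 after DOX, 8.35, 8.38 and 8.59 after RA and 8.81, 8.57 and 8.79 in pluripotent cells. The DOX arrays overlapped with the pluripotent ones (-0.06 ± 0.1, adjusted p = 0.77). EZH1, its paralogue, had values of 6.88, 6.68 and 6.87 after DOX, 7.20, 7.21 and 7.26 after RA and 7.06, 6.93 and 6.94 in pluripotent cells. All DOX arrays lay below all pluripotent ones, yet the difference of -0.17 ± 0.08 did not pass the test (adjusted p = 0.18). The accessory subunits JARID2 (-0.19), MTF2 (-0.24) and PHF19 (0.05) were not called by their brightest probe sets.

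The bases upstream of the starts of KDM6A and EED are shown because these were the only genes of the set called higher after DOX. Each run is the 250 bases before the RefSeq transcript start on the plus strand of GRCh38.p14, at chrX:44872938-44873187 for KDM6A and chr11:86244503-86244752 for EED. Capitals mark, on either strand, the CCAAT box, the GC box GGGCGG, the core TGACG of the cyclic AMP response element, and AGGTCA or its variant AGTTCA, the half-sites of nuclear receptors.
KDM6A: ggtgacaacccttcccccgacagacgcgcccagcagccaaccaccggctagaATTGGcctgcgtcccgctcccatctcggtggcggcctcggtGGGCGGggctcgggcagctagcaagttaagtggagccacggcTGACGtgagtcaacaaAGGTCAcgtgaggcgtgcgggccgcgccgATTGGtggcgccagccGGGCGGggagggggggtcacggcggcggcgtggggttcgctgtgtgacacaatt
EED: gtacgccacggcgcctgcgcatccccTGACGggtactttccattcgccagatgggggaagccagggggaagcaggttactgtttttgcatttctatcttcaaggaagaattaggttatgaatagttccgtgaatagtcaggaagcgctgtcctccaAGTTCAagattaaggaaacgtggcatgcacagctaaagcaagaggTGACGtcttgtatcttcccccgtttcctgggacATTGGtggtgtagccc
The KDM6A run holds the CCAAT box 2 times, the GC box 2 times, the TGACG core 1 time and AGGTCA 1 time. The EED run holds the CCAAT box 1 time, the TGACG core 2 times and AGTTCA 1 time. The p53 half-site consensus was searched as well and had 0 matches in either run, which says only that these letters are not in this window. Of 35116 RefSeq promoters cut the same way, 32.0% hold the CCAAT box, 42.6% the GC box, 21.2% the TGACG core, 12.1% the half-site AGGTCA, 8.8% its variant AGTTCA and 5.57% the p53 half-site. For 45 of the genes RefSeq gave 70 promoters, and of these 34.3%, 74.3%, 27.1%, 1.43%, 5.71% and 0.0% hold the same motifs in that order. The motifs were chosen after the expression values were seen, and a match is a description, not a site.

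Writers gave 9 of the 15 genes that fell after DOX, and 0 of 23 rose in the limma fit (12 lower and 1 higher at an unadjusted p under 0.05). Their median log2 change was -0.175. Among enzymes of H3K9 methylation 3 of 6 fell. SETDB1, which silences retroelements with its partner ATF7IP, fell by 0.49 ± 0.1 (adjusted p = 0.0077), with 7.23, 7.09 and 6.79 on the DOX arrays, 7.68, 7.61 and 7.67 on the RA arrays and 7.50, 7.58 and 7.50 on the pluripotent arrays. The second probe set of SETDB1, at a mean of 5.13, was at 0.01 ± 0.08, so its fall rests on 1 of 2 probe sets. SETDB2 fell by 0.50 ± 0.11 (adjusted p = 0.0093). Only 1 of its 6 probe sets was called lower, and the 6 ranged from -0.50 to 0.17. EHMT1 (GLP), which methylates H3K9 as a dimer with EHMT2, fell by 0.32 (adjusted p = 0.043), a call kept in only 5 of 14 alternative settings. With 1 array left out, EHMT1 was called only without the third pluripotent array. It was at -0.23 and -0.36 without the first and second pluripotent arrays, and at -0.35, -0.36 and -0.25 without the first, the second and the third DOX arrays. SUV39H1 (-0.18), SUV39H2 (-0.19) and EHMT2 itself (-0.22) did not pass the test.

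Enzymes of H3K36 methylation fell in 3 of 4 cases (75.0%, beside 16.6% of genes above the median level). NSD3 had 7.86, 7.80 and 7.76 on the DOX arrays, 8.41, 8.46 and 8.53 on the RA arrays and 8.37, 8.35 and 8.16 on the pluripotent arrays. The DOX arrays lay below all others, 1.41-fold lower than the pluripotent ones (-0.49 ± 0.08, adjusted p = 0.0014). Of the 7 probe sets of NSD3 2 were called lower, and its next brightest ones, at -0.39 and -0.21, did not pass. NSD2, linked to dimethylation of H3K36, fell by 0.36 ± 0.06 (adjusted p = 0.0025). SETD2, the enzyme of H3K36 trimethylation that travels with RNA polymerase II, fell by 0.35 ± 0.09 (adjusted p = 0.018). NSD1 stood on the other side at 0.25 ± 0.09 and was not called (adjusted p = 0.078). KMT2E (MLL5) and SETD5, SET domain proteins counted here as writers although their own histone activity is unsettled, both fell. KMT2E had 7.99, 8.05 and 7.70 on the DOX arrays, 8.37, 8.47 and 8.40 on the RA arrays and 8.55, 8.42 and 8.45 on the pluripotent arrays. It was 1.47-fold lower after DOX (-0.56 ± 0.09, adjusted p = 0.0022), the lowest log2 change of the set. SETD5 fell by 0.38 (adjusted p = 0.013). Without the first pluripotent or the third DOX array, neither SETD2 (-0.32 and -0.29) nor SETD5 (-0.36 and -0.33) was called. SETD2 also missed the threshold without the second pluripotent array (-0.32) and SETD5 without the second DOX array (-0.35), with adjusted p-values of 0.051 to 0.075 over these cases.

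Of the 6 writers of H3K4 methylation 16.7% were called lower after DOX, near the 16.6% of genes above the median level. Only KMT2C (MLL3), which acts at enhancers, was called, at -0.37 ± 0.09 (adjusted p = 0.016). It was at -0.33 and missed the threshold without the first or second pluripotent array (adjusted p = 0.072 each) or the third DOX array (adjusted p = 0.06). KMT2A (0.01), KMT2D (-0.06), SETD1A (-0.07), SETD1B (0.08) and SETD7 (0.09) lay close to 0. WDR5, a scaffold shared by all complexes of this family, fell by 0.44 ± 0.09 (adjusted p = 0.0084), while its partners ASH2L (-0.21) and RBBP5 (0.00) did not pass. The second probe set of WDR5 was at 0.06 ± 0.07, so its fall rests on 1 of 2 probe sets. DOT1L (0.12), the H3K79 enzyme, and the H4K20 enzymes KMT5A (0.05) and KMT5B (0.04) were not called either.

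Among the 17 erasers 4 fell and 1 rose after DOX, with a median log2 change of -0.14. Of the 17, 16 lay above the median level of genes. Their called share of 29.4% (23.5% lower and 5.88% higher) was near that background of 24.6% (16.6% lower and 8.05% higher). KDM1A (LSD1), which removes H3K4 methylation within the CoREST complex, had 9.79, 9.66 and 9.82 on the DOX arrays, 10.19, 10.15 and 10.12 on the RA arrays and 10.04, 10.13 and 10.10 on the pluripotent arrays. Its DOX arrays lay below all others, and it fell by 0.33 ± 0.07 (adjusted p = 0.0071), read from its only probe set. KDM5B (JARID1B), another H3K4 demethylase, fell by 0.37 (adjusted p = 0.0061), whereas KDM5A (-0.15) and KDM5C (-0.14) were not called. KDM4A, which acts on H3K9 and H3K36, fell by 0.39 (adjusted p = 0.0071), and the H3K9 demethylase KDM3B fell by 0.29 (adjusted p = 0.026). KDM3B lost its call without the second or the third pluripotent array (-0.25 and -0.28) and without the second or the third DOX array (-0.28 and -0.27), with adjusted p-values of 0.054 to 0.11. KDM4C (-0.25), KDM3A (-0.17), KDM4B (0.03), JMJD1C (-0.06), PHF8 (0.24) and KDM7A (0.15) did not pass, nor did the H3K36 demethylases KDM2A (-0.08) and KDM2B (0.11). KDM1B, at means of 3.81, 4.16 and 3.97 after DOX, after RA and in pluripotent cells, lay below the median probe set and was not shown to be above background.

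**Figure D2:**
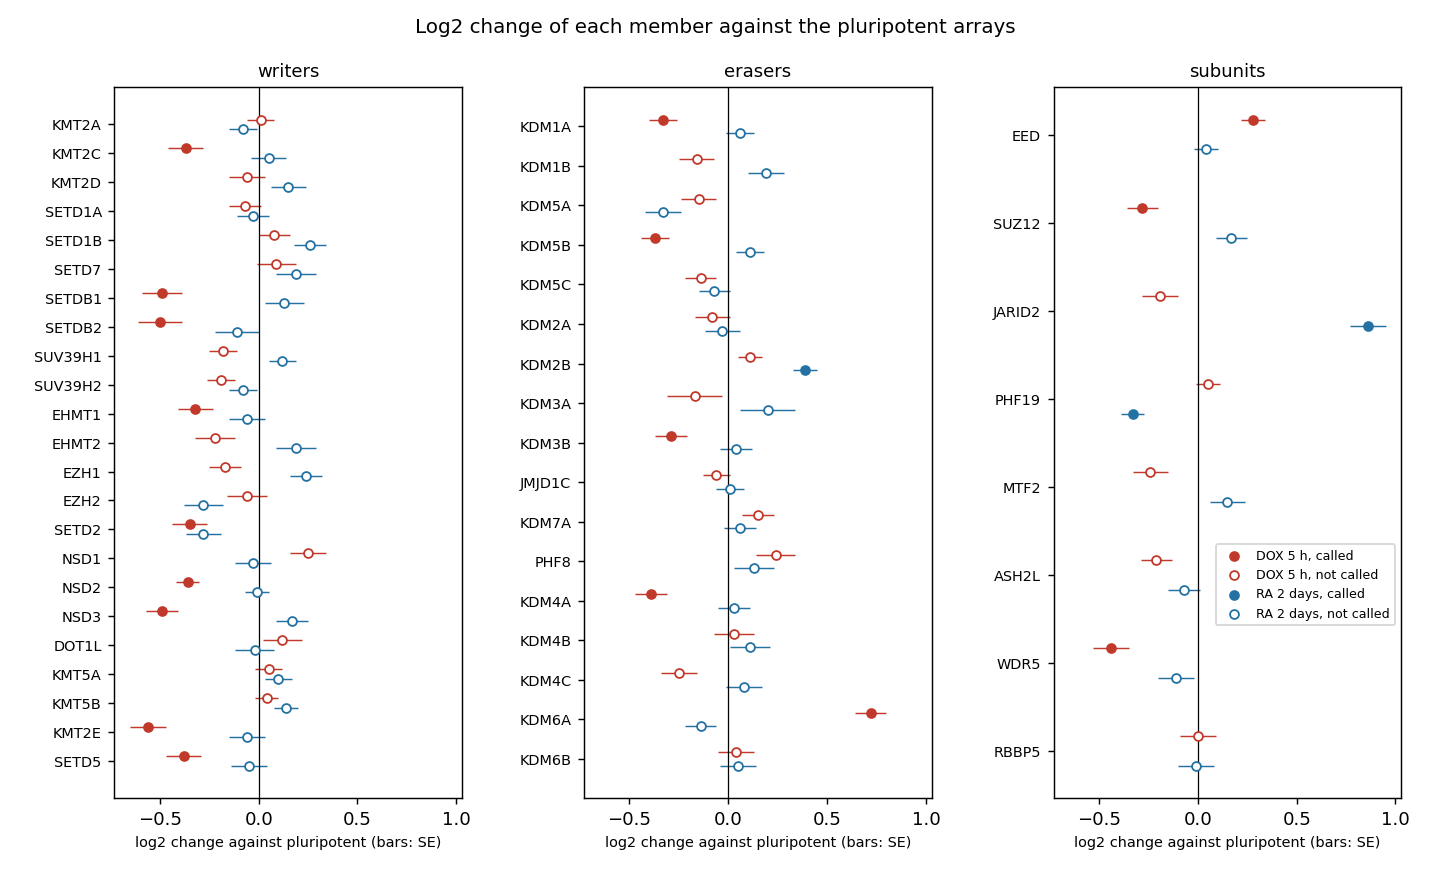
Log2 change of each gene against the pluripotent arrays, after DOX (red) and after RA (blue), with bars for the standard error and filled points for called genes. Both comparisons share the same pluripotent arrays. After DOX the filled points lie at or below -0.28 except for KDM6A at 0.72 and EED at 0.28. After RA only JARID2, KDM2B and PHF19 are filled.

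Complexes around the set were counted in the same way, and their called shares after DOX ran from 9.09% to 45.5%. Of genes above the median level, where most of these genes lie, 24.6% were called. Readers and partners of H3K9 methylation fell in 5 of 11 cases and rose in 0 (45.5% called, median -0.176). The SETDB1 partner ATF7IP fell by 0.51 (adjusted p = 0.00067), CBX3 (HP1γ) by 0.51 (adjusted p = 0.0019) and PPHLN1, a subunit of the HUSH silencing complex, by 0.40 (adjusted p = 0.0098). CoREST and NuRD partners of KDM1A fell in 4 of 17 cases and rose in 0 (23.5% called, near that background, median -0.201), and those with the largest changes were MTA3 (-0.63), MBD2 (-0.58) and HMG20B (-0.46). PRC1 subunits, which bind or write next to H3K27 methylation, fell in 3 of 18 cases and rose in 1 (22.2% called, also near the background), with CBX2 at -0.54 (adjusted p = 0.002), PCGF2 at -0.30 and CBX6 at 0.32. Of 7 further PRC2 partners only RBBP7 fell (-0.34, 14.3% called), and of 11 COMPASS partners only PAXIP1 (-0.53, 9.09% called), both below the background, although all 11 COMPASS partners had a negative value. Arginine methyltransferases fell in 2 of 9 cases (PRMT3, -0.56, and PRMT6, -0.41) and rose in 0, 22.2% called. Other lysine methylation enzymes fell in 2 of 20 cases (RIOX1, -0.46, and SMYD4, -0.35) and rose in 1 (SMYD2, 0.35), 15% called.

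Mitotic genes and markers of other cells moved with the same comparison. Of 20 mitotic genes 16 fell after DOX and 0 rose, among them TTK (-0.81), PLK1 (-0.79) and BUB1 (-0.76). This is 80.0% lower, beside 16.6% of genes above the median level. The mean log2 value of the 20 was 9.37 to 9.44 on the DOX arrays, 9.82 to 9.93 on the RA arrays and 9.85 to 9.86 on the pluripotent arrays. Of the fibroblast and stromal markers 8 of 17 rose after DOX and 1 fell, with ACTA2 at 1.70, TAGLN at 1.59 and TWIST1 at 1.41. Of these markers 47.1% rose and 5.88% fell, beside 5.67% and 9.6% of all genes. Among the defining ones COL1A1 rose by 1.08 (adjusted p = 1.3e-05), while DCN (0.16) and COL3A1 (0.25) were not called. Pluripotency markers had 0 higher and 1 lower of 10 after DOX, 10.0% called beside 24.6% of genes above the median level. All 10 had a negative value, the lowest at -0.46. The part of any of these lists in the values of the histone methylation genes was not tested.

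After RA few of the genes were called. Of 48 genes 2 rose and 1 fell, a called share of 6.25% beside 6.47% of all genes and 10.4% of genes above the median level. Of all genes 3.16% rose and 3.32% fell, and of genes above the median level 4.75% rose and 5.6% fell. The share of the set is thus near the background. The median log2 change of the set was 0.049, against -0.004 over all genes. The comparison shares its pluripotent arrays with that of DOX. Writers had 0 called genes of 23 in the limma fit (4 higher and 2 lower at an unadjusted p under 0.05) and a median of -0.013, erasers 1 of 17 higher and a median of 0.063, and subunits 1 of 8 higher and 1 lower.

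JARID2, which recruits PRC2 to its targets and has lost the demethylase activity of its family, gave the largest change in the set. Its log2 values were 11.45, 11.39 and 11.59 on the DOX arrays, 12.63, 12.55 and 12.39 on the RA arrays and 11.59, 11.79 and 11.62 on the pluripotent arrays. All RA arrays lay well above the other 6. JARID2 rose 1.81-fold after RA (0.86 ± 0.09, adjusted p = 0.00016). A second bright probe set rose by 0.84 ± 0.09, and the remaining one, below the median probe set at a mean of 4.48, was at 0.10 ± 0.07. That dim one was the only probe set left when those with the suffixes x_at and s_at were dropped, and the call was lost there (adjusted p = 0.61). RefSeq gives 2 starts on the plus strand that were matched to JARID2, and the 250 bases before each are shown because this gene carries the RA result. They lie at chr6:15245819-15246068 and chr6:15248605-15248854 in GRCh38.p14. Capitals mark the same motifs as above, and adjoining or overlapping matches form 1 run of capitals.
JARID2 upstream start: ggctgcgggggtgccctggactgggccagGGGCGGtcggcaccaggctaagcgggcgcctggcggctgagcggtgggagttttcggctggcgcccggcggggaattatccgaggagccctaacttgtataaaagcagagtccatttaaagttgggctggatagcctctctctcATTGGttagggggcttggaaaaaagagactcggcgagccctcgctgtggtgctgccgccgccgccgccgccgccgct
JARID2 downstream start: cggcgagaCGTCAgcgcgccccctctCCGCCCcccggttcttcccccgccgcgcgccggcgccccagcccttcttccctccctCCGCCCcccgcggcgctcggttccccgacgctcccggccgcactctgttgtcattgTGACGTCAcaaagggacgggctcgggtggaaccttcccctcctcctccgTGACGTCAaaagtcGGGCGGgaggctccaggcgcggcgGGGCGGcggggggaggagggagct
The upstream run holds the CCAAT box 1 time and the GC box 1 time. The downstream run holds the GC box 4 times and the TGACG core 5 times, counted on both strands with overlaps, and in neither run were the nuclear receptor half-sites or the p53 half-site matched. The arrays do not tell which start was in use.

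KDM2B and PHF19 were the other genes called after RA. Their values on single arrays, like those of NSD3 and SETDB1, are given because of how they moved. KDM2B, which brings a PRC1 variant to CpG islands and demethylates H3K36, had 9.91, 9.88 and 9.93 on the DOX arrays, 10.17, 10.20 and 10.17 on the RA arrays and 9.81, 9.77 and 9.79 on the pluripotent arrays. The 3 conditions did not overlap, and it rose 1.31-fold after RA (0.39 ± 0.06, adjusted p = 0.0025). PHF19 (PCL3), a Tudor domain subunit that targets PRC2, had 7.85, 7.89 and 7.85 on the DOX arrays, 7.51, 7.50 and 7.43 on the RA arrays and 7.87, 7.76 and 7.81 on the pluripotent arrays. Only the RA arrays were low, and it fell by 0.33 ± 0.06 (adjusted p = 0.0096). KDM2B was called in all 13 and PHF19 in all 14 alternative settings run, but KDM2B has only 1 probe set, so no setting could test it with another. Accessory subunits of PRC2 thus moved in opposite directions after RA, while its core did not pass the test. EZH2 was at -0.28 ± 0.1 (adjusted p = 0.15), SUZ12 at 0.17 (adjusted p = 0.31) and EED at 0.04 (adjusted p = 0.81). EZH1 lay at 0.24 ± 0.08 with all RA arrays above all pluripotent ones and did not pass (adjusted p = 0.1), except when the test was limited to genes above the median level (adjusted p = 0.044).

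**Figure D3:**
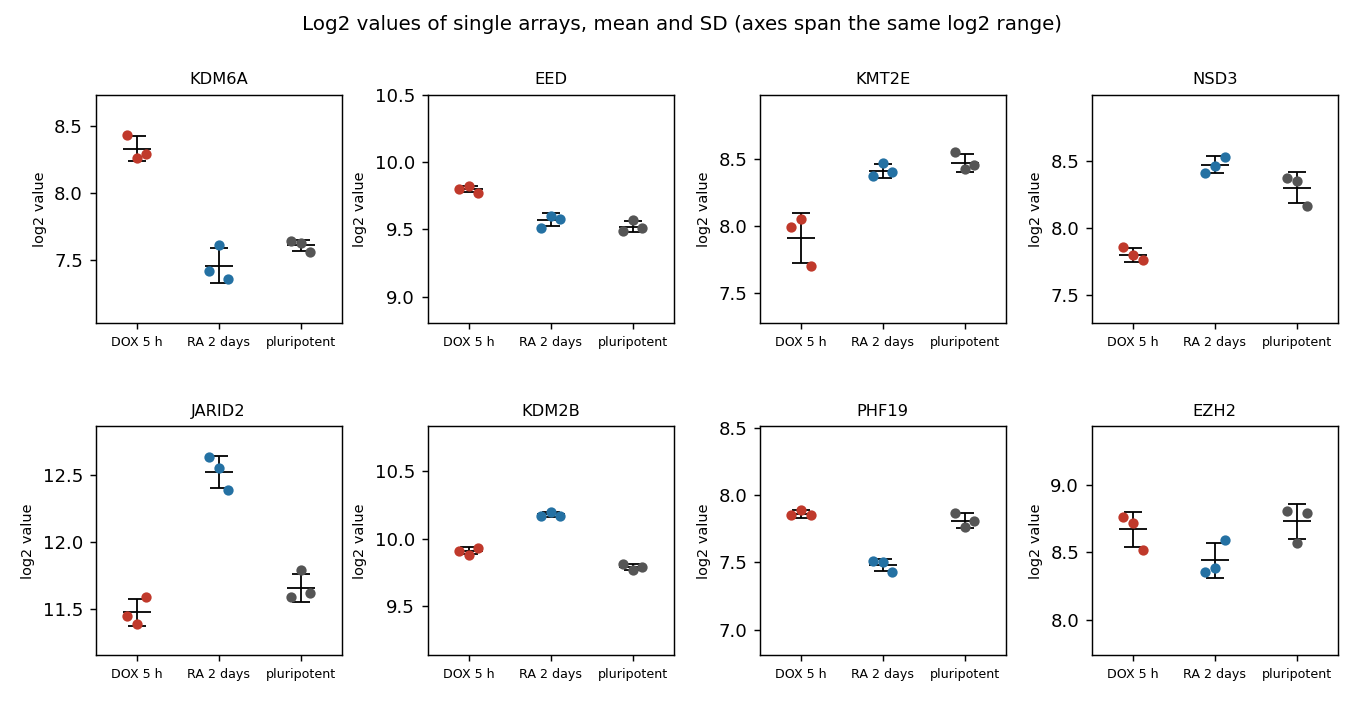
Log2 values of single arrays (points) with the mean and SD (bars) for 8 genes, with DOX 5 h, RA 2 days and pluripotent from left to right and axes that span the same log2 range. KDM6A and EED are high on the DOX arrays, and KMT2E and NSD3 are low there. JARID2 and KDM2B are high and PHF19 is low on the RA arrays, and EZH2 overlaps between conditions.

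The remaining genes that came nearest to the threshold after RA were KDM5A at -0.33 ± 0.09 (adjusted p = 0.067), SETD1B at 0.26 ± 0.08 (adjusted p = 0.093) and SETD2 at -0.28 ± 0.09 (adjusted p = 0.094). For each of these the RA arrays lay wholly on 1 side of the pluripotent arrays. KDM5A was called in 4 of 14 alternative settings, SETD1B in 3 of 14 and SETD2 in 4 of 13. The second probe sets of KDM5A and SETD2, at means of 7.09 and 6.69, were at -0.04 and -0.07. The H3K27 demethylases KDM6A (-0.14, adjusted p = 0.43) and KDM6B (0.05, adjusted p = 0.83) did not pass, nor did KDM1A (0.06). Among related lists, PRC1 subunits had 1 gene higher and 1 lower of 18. Their called share of 11.1%, like the 11.8% of CoREST and NuRD partners and the 10.0% of other lysine methylation enzymes, was near the 10.4% of genes above the median level. The CBX subunit gene CBX7 rose by 0.59 (adjusted p = 0.0082) and PHC2 fell by 0.42 (adjusted p = 0.016). Other lysine methylation enzymes rose in 2 of 20 cases, MECOM by 0.55 and SMYD2 by 0.55, although MECOM averaged 4.42 on the RA arrays and 3.87 on the pluripotent arrays, below the median probe set. CoREST and NuRD partners rose in 2 of 17 cases (GSE1, 0.32, and HDAC1, 0.31), and arginine methyltransferases fell in 2 of 9 (PRMT6, -0.42, and PRMT2, -0.40), 22.2% called. Further PRC2 partners, COMPASS partners, H3K9 readers and mitotic genes had 0 called genes in the limma fit. At an unadjusted p under 0.05 these lists had 1 higher and 0 lower, 1 higher and 1 lower, 1 higher and 3 lower, and 2 higher and 1 lower. NANOG fell by 0.34 (adjusted p = 0.036), and the fibroblast and stromal markers had 2 higher and 4 lower of 17, led by TAGLN (-1.76), VIM (-1.30) and COL1A1 (1.00). Of these markers 11.8% rose and 23.5% fell, beside 3.16% and 3.32% of all genes. The part of any of these lists in the values of JARID2, KDM2B and PHF19 was not tested.

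Set directly against each other, the RA and DOX arrays differed in 25 of 48 genes, of which 21 were higher and 4 lower on the RA arrays. This is 52.1% of the set, beside 21.2% of all genes (12.6% higher and 8.62% lower) and 34.0% of genes above the median level (21.1% higher and 12.9% lower). The median difference was 0.198. The 21 higher genes include WDR5, whose 2 probe sets were called in opposite directions (0.33 and -0.30), so its place in that count rests on the brightest. JARID2 differed most, 2.07-fold higher after RA than after DOX (1.05 ± 0.09, adjusted p = 1.3e-05), and KDM6A was lower after RA by 0.87 on the log2 scale (adjusted p = 2.8e-05). NSD3 (0.66 ± 0.08, adjusted p = 0.00012), SETDB1 (0.61 ± 0.1, adjusted p = 0.0013) and KMT2E (0.50 ± 0.09, adjusted p = 0.0028) were higher after RA. The second probe set of SETDB1 was at -0.04 ± 0.08 in this comparison. Of the PRC2 subunits JARID2, SUZ12 (0.44) and MTF2 (0.39) were higher and PHF19 (-0.38) and EED (-0.23) lower on the RA arrays. The call of EED was kept in 8 of 14 alternative settings. It was lost without the first or second DOX array (-0.23 and -0.22, adjusted p = 0.05 after rounding and 0.062) and without the first or the third RA array (-0.20 and -0.24, adjusted p = 0.08 and 0.053). EZH1 was higher by 0.42 ± 0.08 (adjusted p = 0.0026), while EZH2 at -0.23 ± 0.1 did not pass (adjusted p = 0.14). KDM1A (0.40), KDM5B (0.48), KDM4A (0.42) and KDM3B (0.33) were higher after RA as well. The second probe set of KDM4A, at a mean of 7.74, was at 0.18 and did not pass. The lower count was 2 without the first DOX array, 2 without the first RA array and 2 without the third RA array.

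Writers and erasers were set side by side by counts and medians. After DOX 9 of 23 writers and 4 of 17 erasers fell, and 0 writers and 1 eraser rose, with median log2 changes of -0.175 and -0.14. The shares that fell were 39.1% and 23.5%, beside 16.6% of genes above the median level. The writers that fell include KMT2E and SETD5, whose own histone activity is unsettled. After RA the medians were -0.013 for writers and 0.063 for erasers. Between RA and DOX arrays 10 writers were higher and 1 lower (median 0.216), and 7 erasers were higher and 1 lower (median 0.077). Higher were 43.5% of writers and 41.2% of erasers, and lower were 4.35% and 5.88%. Of genes above the median level 21.1% were higher and 12.9% lower. The 7 higher erasers include KDM1B (0.35, adjusted p = 0.018), which lay below the median probe set and was not shown to be above background. When 1 array of the DOX or pluripotent condition was left out at a time, the DOX medians ranged from -0.207 to -0.148 for writers and from -0.187 to -0.084 for erasers. These ranges overlap, and the difference between the classes was not tested. Within the marks, both sides had genes that fell after DOX, as with the H3K9 writers SETDB1, SETDB2 and EHMT1 beside the erasers KDM4A and KDM3B, and with the H3K4 writer KMT2C beside KDM1A and KDM5B. For H3K27 the eraser KDM6A rose and neither EZH1 nor EZH2 was called.

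Several probe sets were available for 40 of the 48 genes, 165 in all, and a separate fit over all probe sets shows how far those of 1 gene moved together. After DOX 16 of the 17 called genes had several, and 7 of these had 2 or more called the same way. KMT2E had 3 of 3 lower (-0.56, -0.41 and -0.82), KDM6A 2 of 4 higher, NSD2 3 of 6 lower, KDM5B 2 of 5 lower and KDM4A 2 of 2 lower. In contrast, EHMT1 and SUZ12 had 0 called probe sets in this separate fit, their brightest at adjusted p-values of 0.078 and 0.07. The brightest of KDM3B also missed the threshold there (adjusted p = 0.053), while its second was called (adjusted p = 0.015). After RA 2 of the 3 called genes had several, and both had 2 or more called the same way: JARID2 with 2 of 3 and PHF19 with 2 of 3 (-0.33 and -0.48). No gene had probe sets called in both directions in either comparison. Between RA and DOX arrays 1 gene did, WDR5, at 0.33 and -0.30, so no direction can be given for it there. After DOX 2 genes that were not called by their brightest probe set had a called one. MTF2 had 2 of 5 lower (-0.42 each), and the other 3 were negative without passing. KMT2A had 1 of 11 lower (-0.73 ± 0.12, adjusted p = 0.0031), while its brightest was at 0.01.

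**Figure D4:**
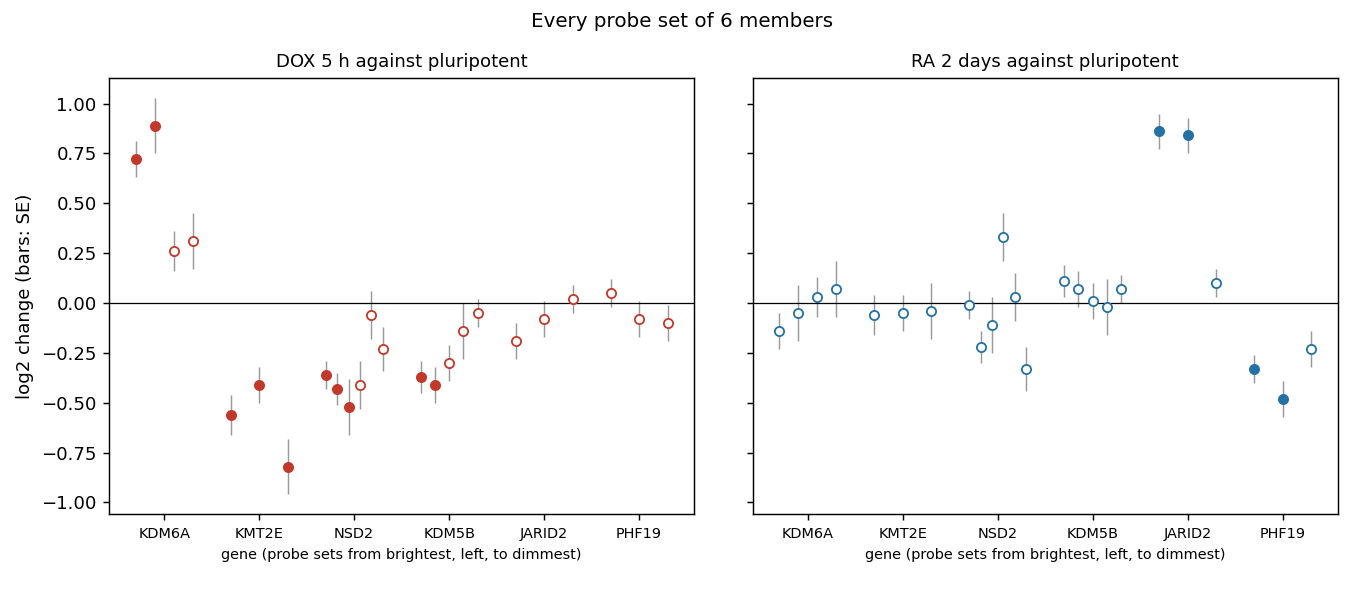
Log2 change of every probe set of 6 genes against the pluripotent arrays, after DOX (left panel) and after RA (right panel), ordered from the brightest to the dimmest within a gene, with bars for the standard error and filled points for called probe sets. The 3 probe sets of KMT2E lie at -0.56, -0.41 and -0.82 after DOX. The 2 bright ones of JARID2 lie at 0.86 and 0.84 after RA and the dim one at 0.10.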

How the data were processed

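RNA was isolated with TRIzol and labelled as biotinylated cRNA, per the labels' protocols. The deposited values, in log2 units per probe set, were made by the authors with RMA and the package affy, per the submitters' processing notes, with versions not given in the sources used here. The log2 scale was read from the range of 2.36 to 14.84. RMA compresses the changes of dim probe sets, and quantile normalization removes shifts shared by most genes. The number of arrays limits the precision.

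Of 54675 probe sets 62 were controls, 41091 had 1 gene in the platform annotation, 1801 several and 11721 none, and 41037 were matched by Entrez identifier to RefSeq genes of GRCh38.p14. With limma 3.58.1 in R 4.3.3, lmFit and eBayes were run on 3 groups (6 degrees of freedom for the residuals and 4.63 for the prior), and low values were not filtered. Adjusted p-values cover all 19775 genes. The fit was checked on simulated data. Values on every array were given for genes called with a log2 change of at least 0.5 after DOX or RA and for EZH1, EZH2, EED, SUZ12, JARID2, KDM6A, KDM6B and KDM1A, and up to 3 called genes were named from each related list. The members and lists were chosen with earlier results of these data known. Alternatives were another probe set per gene, a filter at the median level of genes, eBayes with trend and robust, fits of the compared groups alone, centred arrays, array weights, the replicate number as a block and leaving out each array. Same-numbered arrays correlated at -0.103 to 0.199 in their deviations from the group means, so the numbers were not taken to pair them.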

Additional observations from a re-analysis of the deposited data

How the results depend on the processing

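No alternative gave a called gene's log2 change the opposite sign. The alternatives did not put each other probe set in place of the brightest. That of WDR5 was called the other way between RA and DOX arrays (-0.30 against 0.33). Of 17 genes called after DOX, 4 were called under all alternatives that measured them (NSD3, KMT2E, KDM1A and KDM4A), as were 2 of 3 after RA and 12 of 25 between RA and DOX arrays. KDM1A, KDM2B and SUV39H1, which are among these, have only 1 probe set each. The alternatives that change the probe set could thus not test their calls. With the mean of all probe sets, 1 gene rose and 9 fell after DOX. With x_at and s_at probe sets left out, only 40 of the 48 genes were measured, and 3 of the 15 genes that fell after DOX (SETD2, KDM1A and KDM3B) and 1 of the 2 that rose after RA (KDM2B) had no probe set left. Of the 12 lower genes that remained 9 kept their call. In all, 0 rose and 10 fell after DOX, 0 rose and 1 fell after RA, and 13 were higher and 1 lower after RA than after DOX. With only genes above the median level 4 rose and 3 fell after RA, and 3 fell with a trended and robust spread and with array weights. With the replicate number as a block (replicate block), 2 rose and 15 fell after DOX, 2 rose and 3 fell after RA, and 21 were higher and 3 lower after RA than after DOX. Leaving out 1 array at a time, 1 to 3 rose and 9 to 14 fell after DOX, 2 rose and 1 fell after RA, and 15 to 19 were higher and 2 to 3 lower after RA than after DOX. The lowest count of 1 rise came without the first pluripotent array and that of 9 falls without the third DOX array. The median log2 change after DOX with the mean of all probe sets was -0.082 for writers, -0.042 for erasers and -0.074 for subunits, and without x_at and s_at probe sets -0.122, -0.062 and -0.077. For writers after RA it was 0.039 without x_at and s_at probe sets, and -0.020 to 0.034 with 1 array left out. For subunits between RA and DOX arrays it was 0.076 under both probe set choices and 0.177 to 0.297 with 1 array left out. The cause of these shifts was not tested. Since levels near the median probe set were not shown to be above background, small changes of dim genes such as KDM1B may be understated.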

Other observations

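Between RA and DOX arrays, 3 genes that were not called by their brightest probe set had another that was. One was KMT5B, an H4K20 methyltransferase, whose second probe set had 7.32, 7.41 and 7.32 on the DOX arrays, 6.47, 6.79 and 6.96 on the RA arrays and 7.02, 7.0 and 7.03 on the pluripotent arrays. It was lower by 0.61 ± 0.11 on the RA arrays than on the DOX arrays (adjusted p = 0.0041), while the brightest probe set of KMT5B was higher by 0.10. A further one was KMT2A, with 5.34, 5.00 and 5.51 on the DOX arrays, 6.14, 6.20 and 6.32 on the RA arrays and 6.04, 6.07 and 5.96 on the pluripotent arrays at its 1 called probe set. There the DOX arrays lay below all others, and the RA arrays were higher than the DOX arrays by 0.94 ± 0.12 (adjusted p = 0.00039). The remaining gene was SETD2, whose second probe set was higher on the RA arrays by 0.28 ± 0.07 (adjusted p = 0.026) and whose brightest was at 0.07. Which transcripts these probe sets read was not tested.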
